A study of Mus musculus with 12 samples.

Results

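The unfolded protein response and the integrated stress response are described by 34 named genes, taken by gene symbol from a table of 78298 genes. They form an Atf4 branch of 12 genes, with 7 regulators and 5 enzymes of amino acid and one-carbon metabolism, and an endoplasmic reticulum (ER) branch of 22 genes, with 4 stress sensors and transcription factors, 11 chaperones and cochaperones, 3 disulfide isomerases and 4 genes of ER-associated degradation. The genes were measured by poly(A) RNA sequencing in C2C12 cells, an established mouse myoblast line whose cells fuse into multinucleated myotubes when differentiated. The RGECO group was a C2C12 line carrying a genetically encoded calcium indicator, and the WT group was C2C12 of wild-type genotype. Cells of both groups grew on a methacrylated gelatin hydrogel and were differentiated for 14 days in DMEM with 10% inactivated horse serum, aminocaproic acid at 1 mg/ml and IGF-1 at 50 ng/ml. The labels do not state which promoter drives the indicator or whether the RGECO line is 1 clone. The comparison asks how far the indicator line differs from wild-type C2C12 cells in these stress pathways.

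Of 12 libraries, 11 were used: 5 of RGECO (replicates 1, 2, 3, 5 and 6) and 6 of WT. RGECO replicate 4 held 825 counts and 0 counts in the 34 genes. It enters only the fit with all 12 libraries, one of the alternatives. The libraries used held 5881622 to 11926220 counts in RGECO and 9370322 to 11744314 counts in WT, with the lowest totals in RGECO replicates 5 and 1. Fewer genes had a count in RGECO (17900 ± 1560, SD, n = 5) than in WT (19700 ± 491, SD, n = 6), with a two-sided exact permutation p of 0.0130 and 0.0520 after adjustment over 4 library measures. The labels call the cells myoblasts, and myotube markers (Myh3, Ttn, Ckm, Acta1, Myog and Des) summed to 23000 to 28900 counts per 1000000 counts of the library (CPM) in RGECO and 18000 to 24500 CPM in WT. Markers of undifferentiated or reserve cells (Pax7, Myf5 and Spry1) summed to 66.9 to 77.7 CPM in RGECO and 53.3 to 67.1 CPM in WT. Neuron markers summed to at most 1.88 CPM in RGECO and 0.689 CPM in WT, with Rbfox3 and Snap25 at 0. Macrophage and leukocyte markers summed to 14.9 to 33.6 CPM in RGECO and 12.6 to 29.3 CPM in WT, with Adgre1 at 0. Fibroblast markers summed to 11.1 to 23.7 CPM in RGECO and 18.8 to 27.6 CPM in WT, and endothelial, Schwann cell and adipocyte lists to at most 3.01 CPM in RGECO and 1.45 CPM in WT. Of the 6 myotube markers 1 was called higher (Myh3), and of the 3 reserve cell markers 1 was higher and 1 lower. The part of these differences in the results below was not tested. In bulk RNA, fewer cells of a type and less RNA per cell cannot be told apart.

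When unfolded proteins collect in the ER, the chaperone Hspa5 (BiP) leaves the membrane sensors Ern1 (IRE1), Eif2ak3 (PERK) and Atf6. Ern1 splices the Xbp1 mRNA and Atf6 is cleaved to a transcription factor, and both products bind ER stress response elements in the promoters of chaperone and degradation genes. Eif2ak3 and other kinases that sense amino acid shortage, heme shortage or viral RNA phosphorylate the translation factor eIF2. This slows protein synthesis in general while favouring translation of the Atf4 mRNA, and Atf4 then drives genes for amino acid uptake, synthesis and tRNA charging through elements of the form TGATGNAA. Muscle fibres depend on the ER, there called the sarcoplasmic reticulum, as their calcium store, and the lectin chaperone Calr also binds calcium.

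The proximal promoters of 6 of the genes are shown because they carry an element described above, or belong to the genes on which the results turn. RefSeq promoter windows on GRCm38.p6, of 250 bases before and 50 bases after the start site, were found for 31 of the 34 genes, and Atf6, Hyou1 and Manf had no entry. Both strands were searched for the full ER stress response element (CCAAT, any 9 bases, CCACG), for CCACG alone, which the full element contains, and for TGATGNAA. The stretches below run 5′ to 3′ on the strand of the gene and end at the base before the start site. Capitals mark the full ER stress response element in Hspa5, Hsp90b1 and Syvn1. They mark the TGATGNAA motif in Herpud1 (on the opposite strand) and Asns. Herpud1 also held 2 CCACG matches, which are left unmarked, and Ddit3 held no exact match to the full element or TGATGNAA in its window. Elements of another spacing, with a mismatch or further upstream were not searched, so a gene without a match may still carry one.
Hspa5 promoter, chr2:34771840-34772089, plus strand: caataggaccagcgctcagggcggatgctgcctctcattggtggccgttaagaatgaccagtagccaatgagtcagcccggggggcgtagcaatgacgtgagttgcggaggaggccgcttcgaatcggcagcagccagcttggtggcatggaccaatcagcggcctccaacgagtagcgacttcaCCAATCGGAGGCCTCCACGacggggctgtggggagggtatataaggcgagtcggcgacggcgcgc
Hsp90b1 promoter, chr10:86705445-86705694, minus strand: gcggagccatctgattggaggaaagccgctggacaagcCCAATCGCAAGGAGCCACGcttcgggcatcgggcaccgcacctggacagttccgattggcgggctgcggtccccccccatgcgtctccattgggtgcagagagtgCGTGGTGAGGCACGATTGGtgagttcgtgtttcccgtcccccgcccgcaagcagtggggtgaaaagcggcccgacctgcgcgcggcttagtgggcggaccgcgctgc
Syvn1 promoter, chr19:6046326-6046575, plus strand: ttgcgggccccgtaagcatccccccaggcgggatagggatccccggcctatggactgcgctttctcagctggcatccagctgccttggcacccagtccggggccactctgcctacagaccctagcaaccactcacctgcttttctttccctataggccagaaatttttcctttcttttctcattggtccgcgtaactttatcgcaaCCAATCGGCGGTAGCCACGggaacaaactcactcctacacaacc
Herpud1 promoter, chr8:94386179-94386428, plus strand: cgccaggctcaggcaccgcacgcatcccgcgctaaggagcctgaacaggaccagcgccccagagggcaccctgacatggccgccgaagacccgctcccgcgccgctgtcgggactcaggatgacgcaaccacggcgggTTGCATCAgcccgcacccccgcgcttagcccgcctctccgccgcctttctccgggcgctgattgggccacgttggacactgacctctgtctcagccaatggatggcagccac
Asns promoter, chr6:7693210-7693459, minus strand: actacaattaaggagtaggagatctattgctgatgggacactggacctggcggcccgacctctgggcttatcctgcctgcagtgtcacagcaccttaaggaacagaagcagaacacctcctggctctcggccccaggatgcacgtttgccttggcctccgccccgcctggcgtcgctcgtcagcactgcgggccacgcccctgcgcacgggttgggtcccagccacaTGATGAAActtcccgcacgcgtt
Ddit3 promoter, chr10:127290543-127290792, plus strand: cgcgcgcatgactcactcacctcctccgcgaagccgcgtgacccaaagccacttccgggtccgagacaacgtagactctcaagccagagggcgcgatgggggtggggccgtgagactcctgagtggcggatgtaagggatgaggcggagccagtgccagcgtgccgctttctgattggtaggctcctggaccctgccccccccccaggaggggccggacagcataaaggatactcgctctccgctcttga

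The full ER stress response element was found for 8 of 19 matched genes of the ER branch (42.1%) and 0 of 12 of the Atf4 branch, against 39 of 32851 RefSeq promoters (0.119%). A gene counted once if any of its windows held the motif, and Atf5 and Psat1 had more than 1 window. The shares of all promoters count each window apart. The 8 were Hspa5, Hsp90b1, Dnajc3, Creld2, Calr, Canx, Pdia6 and Syvn1, and Hsp90b1 held 2 copies, 1 on each strand. CCACG alone was found for 25 of the 31 genes, against 32.8% of all promoters. TGATGNAA was found in Trib3, Chac1, Asns and Herpud1, which is 4 of 31 genes, against 3.97% of all promoters. These matches describe letters in a window and were not tested against expression.

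**Figure D1:**
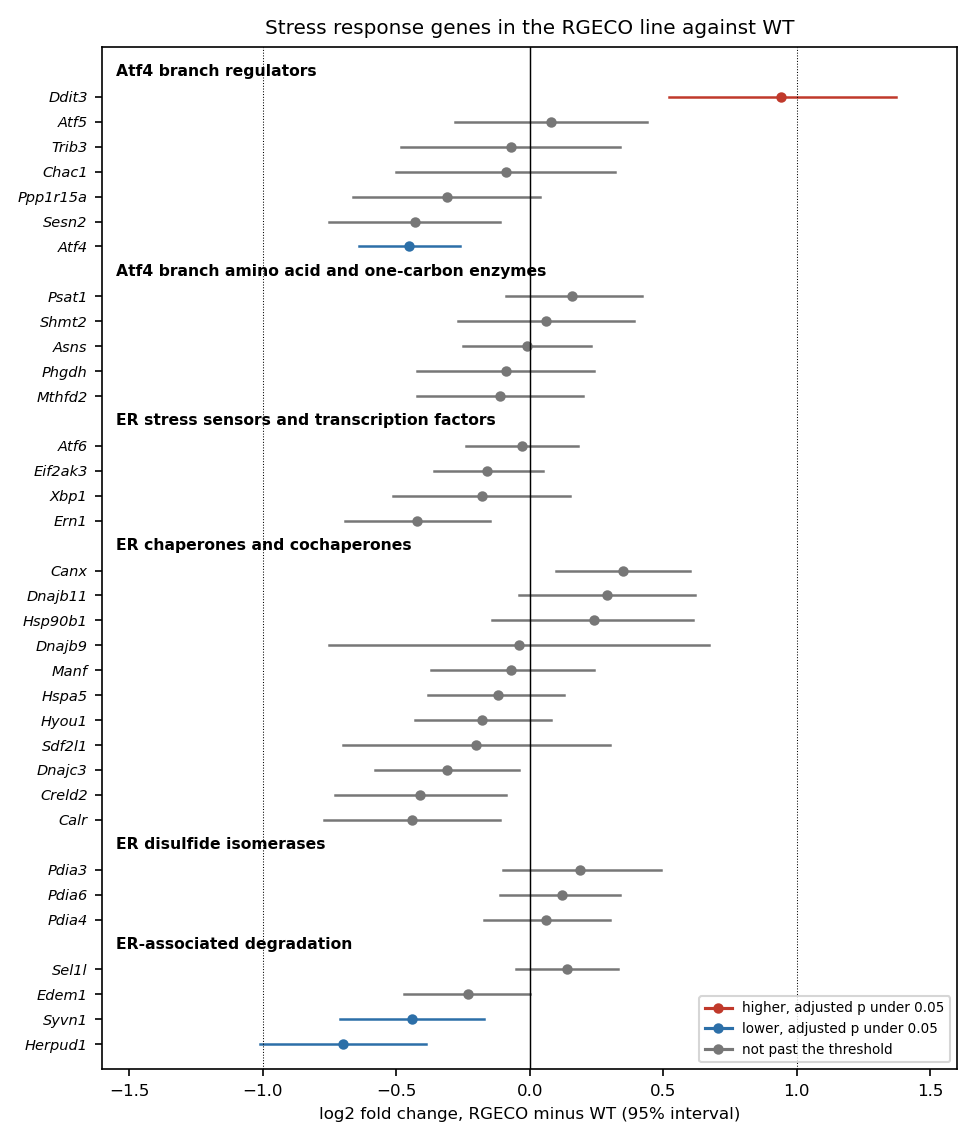
Log2 fold change of each of the 34 genes in RGECO relative to WT (x axis, points) with its 95% interval (lines), grouped by role (y axis). Ddit3 is the 1 gene called higher, and Atf4, Herpud1 and Syvn1 are the 3 called lower; dotted lines mark a change of 2-fold, and 32 of the 34 intervals lie between them.

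Of the 34 genes, Ddit3 was higher in RGECO and Atf4, Herpud1 and Syvn1 were lower, at an adjusted p of 0.05 in edgeR's quasi-likelihood test over 13318 genes. These 4 calls are 11.8% of the genes, against a background of 8.35% of all genes tested, of which 3.42% were called higher and 4.93% lower. On log2 TPM with a pseudocount of 1, 344 of all genes were called higher and 261 lower, against 456 higher and 656 lower on counts. The Atf4 branch had 1 call in each direction among 12 genes, with a median log2 fold change of -0.08. The ER branch had 0 higher and 2 lower among 22 genes, with a median of -0.14, and the median over all genes tested was -0.01. For 2 of the 34 genes (5.88%) the RGECO and WT libraries did not overlap in CPM, against 7.97% of all genes. The 95% interval lay within a 2-fold change in either direction for 32 of the 34 genes (94.1%), and for 74% of all genes tested.

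Levels between genes were compared in transcripts per 1000000 (TPM), which are corrected for transcript length. The most abundant of the 34 transcripts were the ER chaperones Calr, Hspa5 and Hsp90b1. Others of that list were scarcer, down to Dnajc3 with 14.1 TPM in RGECO and 16.7 TPM in WT. Calr was highest with a mean of 1100 TPM in RGECO and 1380 TPM in WT, then Hspa5 with 706 TPM in RGECO and 717 TPM in WT, and Hsp90b1 with 487 TPM in RGECO and 387 TPM in WT. In RGECO the ranges of Hspa5 (583 to 853 TPM) and Hsp90b1 (377 to 616 TPM) overlapped, and in WT they did not (608 to 821 TPM and 254 to 478 TPM). Within each library of both lines, Hspa5 was above Hsp90b1. The order of Atf4, Herpud1 and Ddit3 depended on the line. In RGECO, Atf4 averaged 309 TPM, Ddit3 307 TPM and Herpud1 256 TPM, and in WT, Atf4 averaged 393 TPM, Herpud1 389 TPM and Ddit3 142 TPM. In RGECO, Ddit3 (248 to 354 TPM) thus lay at the level of Atf4 (291 to 332 TPM), whereas in WT all Ddit3 libraries (117 to 181 TPM) were below all Atf4 libraries (333 to 464 TPM). Among the sensors, Ern1 was lowest of all 34 genes at 7.92 TPM in RGECO and 11 TPM in WT. Eif2ak3 had 15.0 TPM in RGECO and 15.1 TPM in WT, and Atf6 had 39.8 TPM in RGECO and 38.5 TPM in WT.

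**Figure D2:**
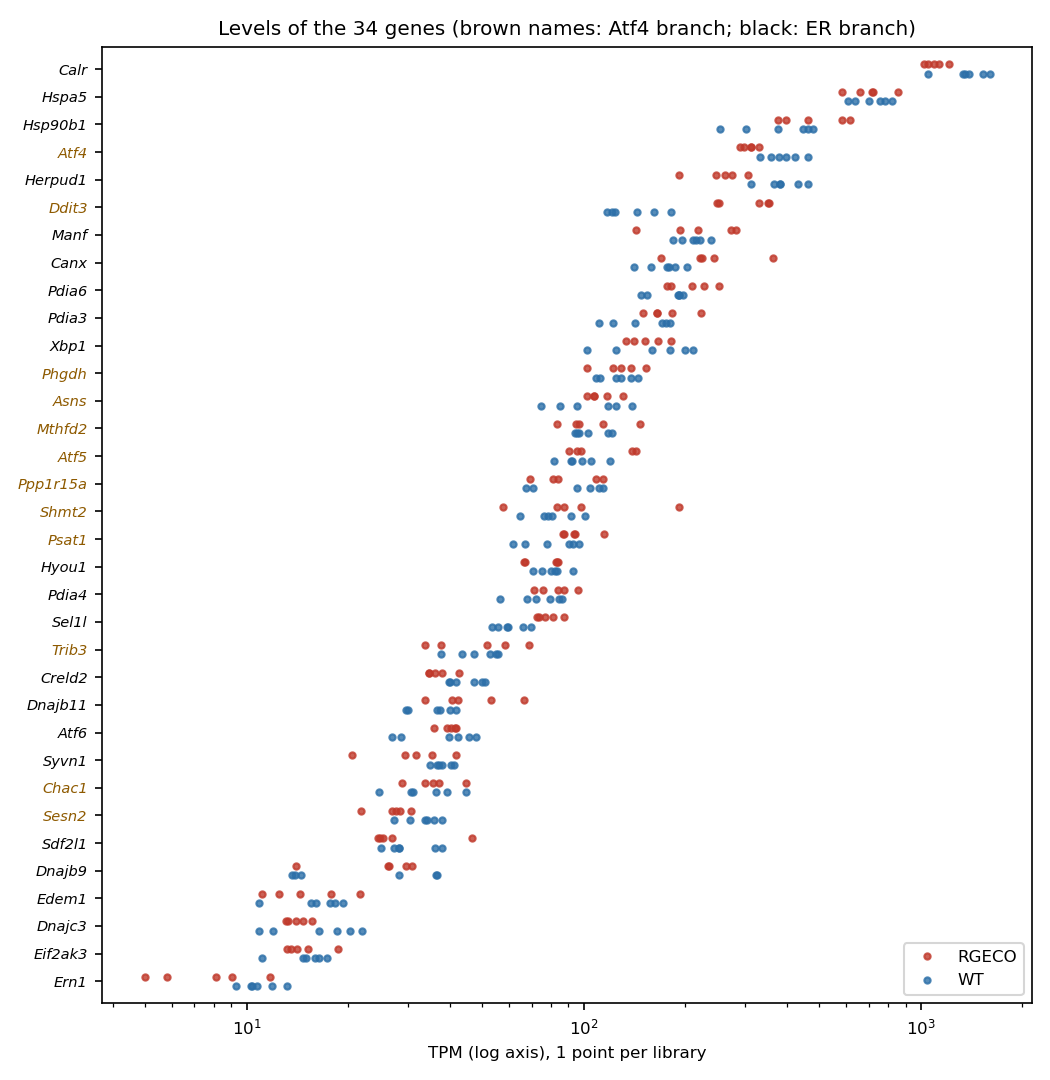
Level of each gene in TPM (x axis, log scale) with 1 point per library, the 5 RGECO libraries drawn above the 6 WT libraries in each row, and rows ordered by the mean over all 11 libraries. Calr, with means of 1100 TPM in RGECO and 1380 TPM in WT, is at the top and Ern1, with 7.92 TPM in RGECO and 11 TPM in WT, at the bottom; Ddit3 points of RGECO lie to the right of all WT points.

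Among the regulators of the Atf4 branch, Ddit3 (CHOP), a transcription factor linked to cell death under prolonged stress, was the 1 gene that rose. It had 163, 198, 144, 207 and 139 CPM in RGECO replicates 1, 2, 3, 5 and 6, against a lowest of 63.5, a median of 73.8 and a highest of 140 CPM in WT. RGECO libraries were high throughout, and the lines met only where RGECO replicate 6 (139 CPM) reached WT replicate 2 (140 CPM), with WT replicate 1 next at 113 CPM. The mean was 170 ± 30.9 CPM in RGECO (SD, n = 5) and 88.5 ± 30.7 CPM in WT (SD, n = 6), a log2 fold change of 0.94 with a standard error (SE) of 0.20, or 1.92-fold (adjusted p = 0.00785, edgeR). The call was lost, at a log2 fold change of 0.86 and an adjusted p of 0.0630, when the RGECO libraries of lowest total (replicates 5 and 1) were both left out. In the GENCODE M21 annotation of GRCm38, Ddit3 shares 68 exon bases with the methionyl-tRNA synthetase gene Mars1 on the opposite strand, and Mars1 did not pass the test (log2 fold change 0.13, adjusted p = 0.498). A second row with the symbol Ddit3 was listed at 0 in every library, and its gene model lies wholly within the exons of the first.

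Atf4, the transcription factor at the head of the branch, fell. It had 366, 385, 365, 396 and 389 CPM in RGECO replicates 1, 2, 3, 5 and 6, against a lowest of 453, a median of 540 and a highest of 563 CPM in WT. Every RGECO library was below every WT library. The mean was 380 ± 13.9 CPM in RGECO (SD, n = 5) and 521 ± 44.5 CPM in WT (SD, n = 6), a log2 fold change of -0.45 with an SE of 0.09 (adjusted p = 0.00456, edgeR). The call did not hold in the fits on log2 TPM (log2 fold change -0.34 and adjusted p 0.0753 with a pseudocount of 1, where the median over all genes was 0.09). Within each library, Ddit3 in TPM was 99.9%, 113%, 86.6%, 118% and 78.8% of Atf4 in RGECO replicates 1, 2, 3, 5 and 6, against 27.7% to 54.5% in the WT libraries, a ratio chosen after its values were seen and given without a test.

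**Figure D3:**
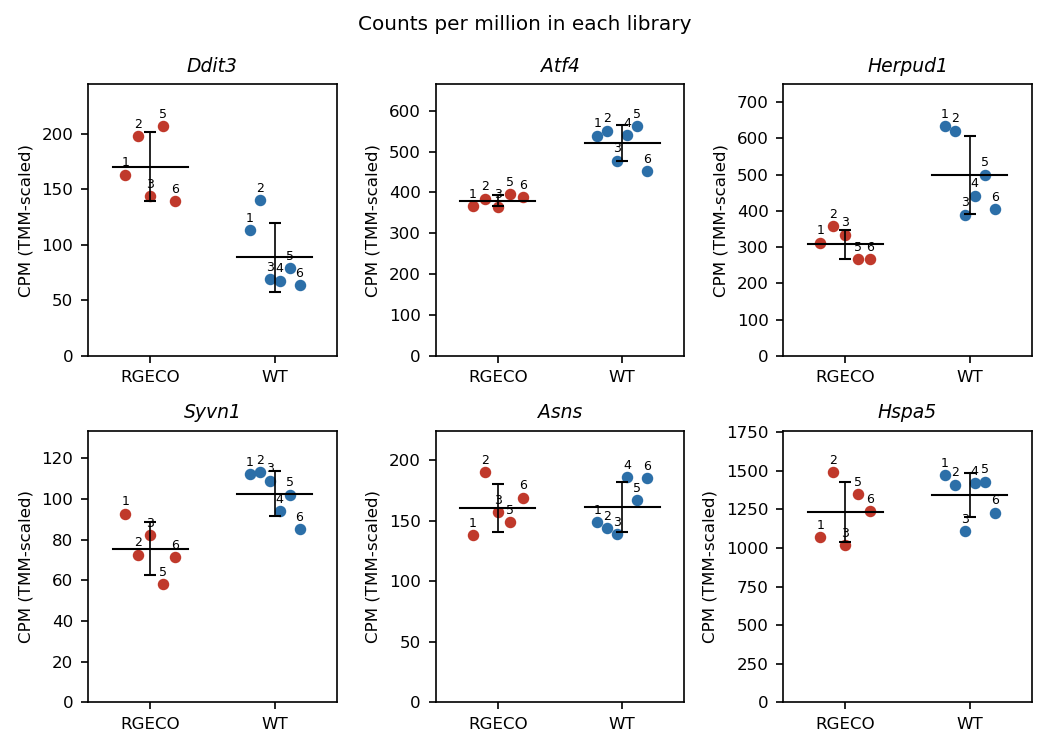
CPM (y axis, from 0) of 6 genes in each library, RGECO to the left of WT, with replicate numbers beside the points, the mean as a horizontal line and the SD as a bar (n = 5 RGECO, n = 6 WT). Ddit3 is higher in RGECO with 1 near-tie (RGECO replicate 6 at 139 CPM and WT replicate 2 at 140 CPM), Atf4 and Herpud1 are lower without overlap, Syvn1 is lower with overlap, and Asns and Hspa5 overlap widely.

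The other 5 regulators did not pass the test. Sesn2, a sestrin that restrains mTORC1 when leucine is short, had 70.8 ± 7.64 CPM in RGECO and 95.4 ± 22.2 CPM in WT (SD, n = 5 and 6), a log2 fold change of -0.43 (adjusted p = 0.0993). Ppp1r15a (GADD34), which brings a phosphatase to eIF2 and so ends the translation block, had 124 ± 16.0 CPM in RGECO and 154 ± 42.2 CPM in WT, a log2 fold change of -0.31 (adjusted p = 0.298). Atf5, a transcription factor translated under the same control as Atf4, had a log2 fold change of 0.08, and its 95% interval ran from -0.28 to 0.44. Trib3, a pseudokinase induced by Atf4 and Ddit3, had a log2 fold change of -0.07, and Chac1, a glutathione-degrading enzyme induced by Atf4, had -0.09. Their adjusted p-values were 0.848, 0.882 and 0.843. Trib3 and Chac1, both with TGATGNAA in the promoter, had 72.2 and 41.4 CPM on average in RGECO, against 75.8 and 44.1 CPM in WT.

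Of the 5 amino acid and one-carbon enzymes of the branch, 0 passed the test in edgeR, 0 passed in DESeq2 and 0 had an unadjusted p under 0.05, and all 5 intervals lay within a 2-fold change. Asns, asparagine synthetase, whose promoter carries a TGATGNAA match, had 138, 190, 157, 149 and 169 CPM in RGECO replicates 1, 2, 3, 5 and 6. WT libraries ran from 139 through a median of 158 to 186 CPM, so the lines overlapped throughout, and the log2 fold change was -0.01 (95% interval -0.25 to 0.23, adjusted p = 0.976). Phgdh, the first enzyme of serine synthesis and the most abundant of these enzymes (129 TPM in RGECO and 126 TPM in WT), had 148, 187, 178, 225 and 139 CPM in RGECO replicates 1, 2, 3, 5 and 6. In WT it ran from 151 through a median of 182 to 251 CPM, and the lines overlapped. Psat1, which follows Phgdh in serine synthesis, had the largest value of the list, a log2 fold change of 0.16 (adjusted p = 0.477). Shmt2, the mitochondrial enzyme that moves a one-carbon unit from serine to folate, had 0.06, and Mthfd2, which oxidises that unit, had -0.11. The Atf4 transcript was lower in RGECO, and the values of these 5 transcripts ran from -0.11 to 0.16.

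In CPM, 1 library of each line was highest for most genes of the Atf4 branch. RGECO replicate 5 was the highest of the 5 RGECO libraries for 8 of the 12 genes, and RGECO replicate 6 was the lowest for 9 of 12. WT replicate 2 was the highest of the 6 WT libraries for 8 of 12, and WT replicate 6 the lowest for 6 of 12. RGECO replicate 5 and WT replicate 2 also had the lowest share of counts from mitochondrial genes in their lines, 0.298% and 0.204%, and RGECO replicate 6 the highest in its line, 1.33%. WT replicates 6 and 4 had 1.59% and 1.68%. In TPM the pattern held in RGECO, where the summed branch was highest in replicate 5 (1710 TPM) and lowest in replicate 6 (1270 TPM). It did not hold in WT, where replicate 2 had 1350 TPM, below replicate 5 (1410 TPM) and replicate 3 (1370 TPM). The summed level of the branch was 1550 to 2090 CPM in RGECO and 1650 to 2260 CPM in WT, and that of the ER branch 5870 to 7420 CPM in RGECO and 5920 to 7800 CPM in WT. Mitochondrial share itself was 0.698 ± 0.389% in RGECO and 0.986 ± 0.591% in WT (SD, n = 5 and 6, two-sided exact permutation p = 0.372). With this share as a covariate, Ddit3 (0.81) and Atf4 (-0.46) kept similar log2 fold changes, at adjusted p-values of 0.000734 and 0.000277, and Sesn2 (-0.55) and Ppp1r15a (-0.43) also passed as lower, at 0.000316 and 0.00265. In that fit 3133 of all genes were called rather than 1112 in the fit without it.

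**Figure D4:**
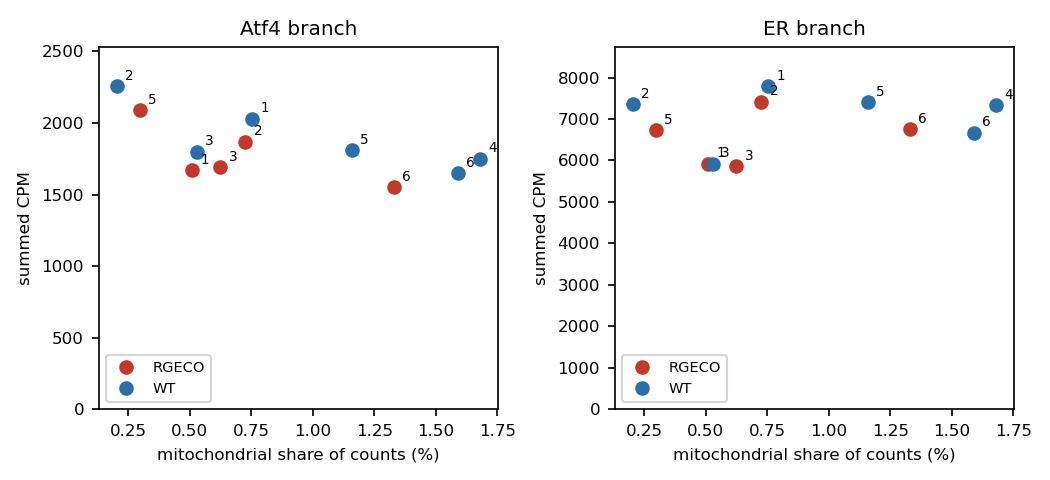
Summed CPM (y axis, from 0) of the 12 Atf4 branch genes (left) and the 22 ER branch genes (right) against the mitochondrial share of counts (x axis, percent), with 1 point per library labelled by replicate number. For the Atf4 branch, RGECO replicate 5 (2090 CPM) and WT replicate 2 (2260 CPM) are the highest of their lines at the lowest shares, which in TPM holds for RGECO replicate 5 (1710 TPM) and not for WT replicate 2 (1350 TPM, below WT replicate 5 at 1410 TPM).

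Of the 4 ER stress sensors and transcription factors, 0 passed the test in edgeR and 1 had an unadjusted p under 0.05, and all 4 values were below 0. Ern1, the kinase and RNase that splices Xbp1, was just outside the threshold, with 29.4 ± 5.18 CPM in RGECO and 39.4 ± 2.28 CPM in WT (SD, n = 5 and 6), a log2 fold change of -0.42 (adjusted p = 0.0525). It passed in DESeq2 (adjusted p = 0.0321) and when RGECO replicate 1 was left out (adjusted p = 0.0204). With mitochondrial or Malat1 share as a covariate it also passed (adjusted p 0.0197 and 0.0397). Those fits called 3133 and 2771 of all genes, against 1112 without a covariate. Xbp1, the most abundant of the 4, had 188, 168, 136, 153 and 156 CPM in RGECO replicates 1, 2, 3, 5 and 6, against a lowest of 124, a median of 189 and a highest of 224 CPM in WT. All RGECO values fell within the WT range (log2 fold change -0.18, adjusted p = 0.546). That range was split, with 144, 124 and 168 CPM in WT replicates 1, 2 and 3 and 219, 224 and 210 CPM in WT replicates 4, 5 and 6. Counts per gene do not separate spliced from unspliced Xbp1, so its activity was not measured. Eif2ak3 had a log2 fold change of -0.16 (adjusted p = 0.386) and Atf6 of -0.03 (adjusted p = 0.898), each with an interval within a 2-fold change.

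Of the 11 ER chaperones and cochaperones, 0 passed the test in edgeR, and all 11 intervals lay within a 2-fold change. At an unadjusted p under 0.05, 1 was higher (Canx) and 3 were lower (Calr, Creld2 and Dnajc3), and DESeq2 called 1 higher and 0 lower. Calr, calreticulin, had 1110, 1420, 1230, 1480 and 1290 CPM in RGECO replicates 1, 2, 3, 5 and 6, against a lowest of 1340, a median of 1640 and a highest of 2320 CPM in WT. RGECO libraries were at the low end and WT replicates 1 and 2 well above the rest, and the log2 fold change was -0.44 (95% interval -0.77 to -0.11, adjusted p = 0.0973). The adjusted p was 0.0429 when genes of low count were kept in the fit. Its membrane partner Canx, calnexin, had the opposite sign, with 601 ± 78.8 CPM in RGECO and 472 ± 66.9 CPM in WT (SD, n = 5 and 6) and a log2 fold change of 0.35 (adjusted p = 0.0871, and 0.0489 in DESeq2). With mitochondrial share as a covariate, Canx and Hsp90b1 passed as higher (adjusted p 0.000386 and 0.00358), and Calr, Creld2 and Hyou1 as lower (0.0103, 0.00254 and 0.0205). With Malat1 share as a covariate, Canx passed as higher (0.0020), and Calr, Creld2 and Hyou1 as lower (0.00264, 0.00154 and 0.0455). Calls rose over all genes in these fits, to 3133 with mitochondrial share and 2771 with Malat1 share, from 1112 without a covariate.

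Hspa5, the main ER chaperone of the Hsp70 family and the usual readout of ER stress, had 1230 ± 196 CPM in RGECO and 1340 ± 143 CPM in WT (SD, n = 5 and 6). Its log2 fold change was -0.12, with a 95% interval of -0.38 to 0.13 (adjusted p = 0.609). Hsp90b1 (GRP94), the ER member of the Hsp90 family, had 877 ± 196 CPM in RGECO and 745 ± 181 CPM in WT, a log2 fold change of 0.24 (adjusted p = 0.491). WT replicates 1, 2 and 3 had 715, 526 and 538 CPM of Hsp90b1, and WT replicates 4, 5 and 6 had 926, 903 and 862 CPM. The promoters of Hspa5 and Hsp90b1, printed above, both hold the full ER stress response element.

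Of the cochaperones and smaller ER proteins, Creld2 (log2 fold change -0.41, adjusted p = 0.113) and Dnajc3 (P58IPK; -0.31, adjusted p = 0.158) had the lowest values. Creld2 is a secreted ER stress-inducible protein, and Dnajc3 assists Hspa5 and restrains eIF2 kinases. Dnajb11, another J-domain partner of Hspa5, had 0.29 and Dnajb9, a J-domain protein that restrains Ern1, had -0.04. Dnajb9 had 41.1 ± 10.9 CPM in RGECO and 42.1 ± 21.3 CPM in WT, and its interval of -0.75 to 0.67 was the widest of the 34. Its WT values were 31.9, 14.8 and 25.6 CPM in replicates 1, 2 and 3 and 68.9, 50.6 and 61 CPM in replicates 4, 5 and 6. Hyou1, a large Hsp70-like chaperone, had -0.18, Sdf2l1, a partner of J-domain proteins, -0.20, and Manf, a secreted ER stress-inducible factor, -0.07.

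The 3 disulfide isomerases, which form and rearrange disulfide bonds in folding proteins, had values above 0, and 0 of 3 passed in edgeR, in DESeq2 or at an unadjusted p of 0.05. Pdia6 was the most abundant, with 279, 299, 259, 373 and 257 CPM in RGECO replicates 1, 2, 3, 5 and 6. In WT it ran from 256 through a median of 269 to 289 CPM, and only RGECO replicates 2 and 5 exceeded that range (log2 fold change 0.12, adjusted p = 0.566). Pdia3, which acts on glycoproteins held by Calr and Canx, had a log2 fold change of 0.19 (adjusted p = 0.458, and 0.0254 with mitochondrial share as a covariate), and Pdia4 had 0.06 (adjusted p = 0.801).

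ER-associated degradation held both calls of the ER branch. Herpud1, a membrane protein that organises the degradation complex, had 312, 357, 334, 266 and 267 CPM in RGECO replicates 1, 2, 3, 5 and 6, against a lowest of 389, a median of 471 and a highest of 634 CPM in WT. The lines did not overlap, and WT replicates 1 and 2 stood above the other WT libraries. The mean was 307 ± 40.4 CPM in RGECO (SD, n = 5) and 499 ± 107 CPM in WT (SD, n = 6), a log2 fold change of -0.70 with an SE of 0.14 (adjusted p = 0.0067, edgeR), the largest fall among the 34 genes. The call was lost, at -0.64 and an adjusted p of 0.0628, without the 2 RGECO libraries of lowest total. In TPM, Herpud1 was 26.8% to 45% of Hspa5 in the RGECO libraries and 48.7% to 61.5% in the WT libraries, a ratio given as a description.

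Syvn1 (HRD1), the ubiquitin ligase at the centre of that complex, had 92.8, 72.6, 82.3, 58.1 and 71.2 CPM in RGECO replicates 1, 2, 3, 5 and 6, against a lowest of 85.2, a median of 105 and a highest of 113 CPM in WT. Only RGECO replicate 1 lay within the WT range. The mean was 75.4 ± 13.0 CPM in RGECO (SD, n = 5) and 102 ± 11.1 CPM in WT (SD, n = 6), a log2 fold change of -0.44 with an SE of 0.13 (adjusted p = 0.0425, edgeR). This call was lost in 9 of the 11 fits that left out 1 library, all but those without RGECO replicate 1 or WT replicate 6, with an adjusted p of up to 0.117 (without RGECO replicate 2). Sel1l, the adaptor that holds Syvn1 in the complex, had 258 ± 10.9 CPM in RGECO and 233 ± 20.7 CPM in WT, a log2 fold change of 0.14 (adjusted p = 0.392). Edem1, a lectin that hands misfolded glycoproteins to the complex, had a log2 fold change of -0.23 (adjusted p = 0.237).

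The rest of these pathways was read from 10 lists with 119 further genes, of which 116 were tested, with 1 called higher and 14 lower (12.9%, against 8.35% of all genes tested) and a median log2 fold change of -0.08. Amino acid transport, a main output of the Atf4 branch, held the most calls, with 6 of 9 tested genes lower, 0 higher and a median of -0.63. The rest of the tested transporters were not called in edgeR. Slc6a9 (log2 fold change 0.27, adjusted p = 0.336) and Slc1a5 (0.18, 0.619) were above 0. Slc7a11, with means of 1.87 CPM in RGECO and 2.94 CPM in WT, had -0.63 (0.548). The lists were chosen with earlier results of these data known, so their counts are a description. Slc1a4, a carrier of neutral amino acids such as alanine and serine, had 22, 25.8, 32.2, 24.9 and 19.6 CPM in RGECO replicates 1, 2, 3, 5 and 6, against a lowest of 46.6, a median of 56.8 and a highest of 65.4 CPM in WT. Every RGECO library was below every WT library (log2 fold change -1.17, SE 0.14, adjusted p = 0.00011), and Slc1a4 was the 1 gene of the 15 called here that passed in all 22 alternative fits.

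Slc38a2 (SNAT2), the sodium-coupled carrier of neutral amino acids that adapts to starvation, had 160, 152, 167, 115 and 198 CPM in RGECO replicates 1, 2, 3, 5 and 6, against a lowest of 236, a median of 312 and a highest of 394 CPM in WT. Its lines did not overlap in CPM either (log2 fold change -0.99, SE 0.16, adjusted p = 0.0011). Slc7a1, a carrier of arginine and lysine, had 57.7 ± 11 CPM in RGECO and 93.1 ± 9.31 CPM in WT, a log2 fold change of -0.69 (adjusted p = 0.00364, and 0.163 on log2 TPM with a pseudocount of 1). Slc43a1, a carrier of large neutral amino acids at a low level, had 1.97 ± 0.946 CPM in RGECO and 5.96 ± 1.41 CPM in WT, a log2 fold change of -1.6 (adjusted p = 0.00814).

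Both chains of the leucine exchanger were lower, Slc7a5 (LAT1) with 292 ± 41.8 CPM in RGECO and 408 ± 58.3 CPM in WT (log2 fold change -0.48, adjusted p = 0.0221), and its heavy chain Slc3a2 (CD98) with 227 ± 28.6 CPM in RGECO and 302 ± 28.7 CPM in WT (-0.41, adjusted p = 0.0270). All 6 transporters were free of overlap between the lines in CPM, as were 7.97% of all genes tested (SD over n = 5 RGECO and n = 6 WT libraries). In TPM, Slc1a4 and Slc7a5 were free of overlap, and Slc38a2, Slc7a1, Slc3a2 and Slc43a1 were not. The highest RGECO library of Slc38a2 had 54.6 TPM and its lowest WT library 49.8 TPM. The number of lower transporters was 4 to 6 when 1 library was left out and 3 on log2 TPM with a pseudocount of 1. The call of Slc7a5 was lost without RGECO replicate 1, 2 or 6 or WT replicate 3 (adjusted p up to 0.0811), and that of Slc3a2 without RGECO replicate 1, 2 or 6 or any of WT replicates 1 to 5 (adjusted p up to 0.0960). Slc7a5 and Slc3a2 are named beyond the 4 genes per list that the naming rule allows, to account for the whole count.

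**Figure D5:**
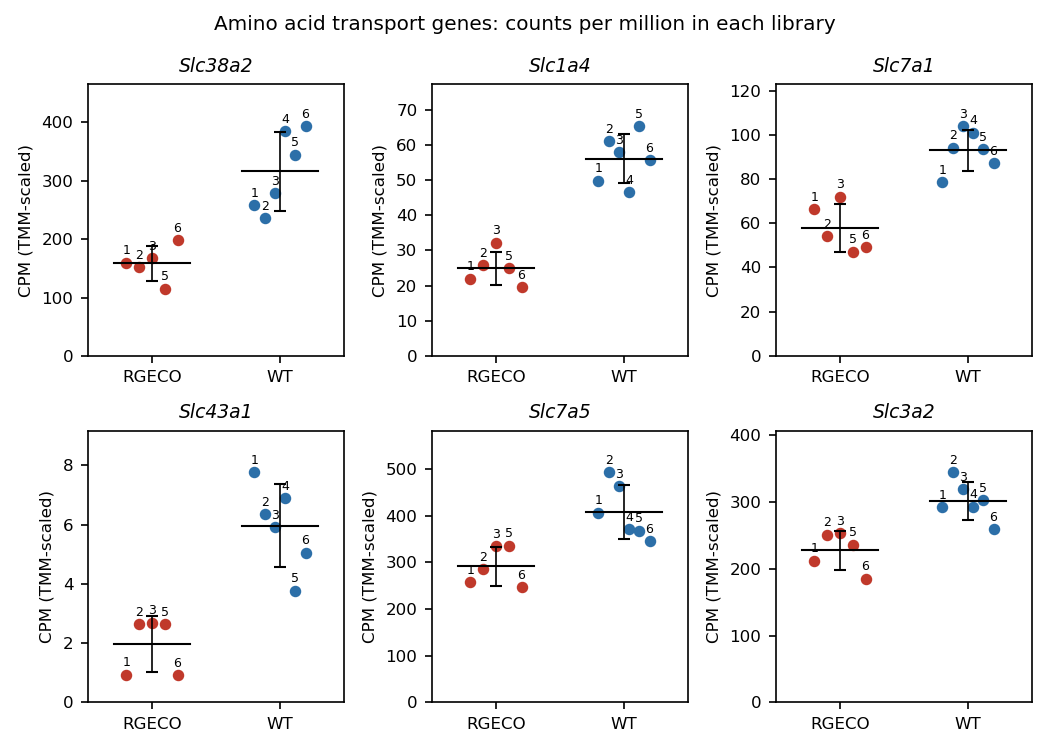
CPM (y axis, from 0) of the 6 amino acid transport genes called lower, in each library, RGECO to the left of WT, with replicate numbers beside the points, the mean as a horizontal line and the SD as a bar (n = 5 RGECO, n = 6 WT). In every panel all RGECO points lie below all WT points, as for Slc1a4 with 19.6 to 32.2 CPM in RGECO and 46.6 to 65.4 CPM in WT. In TPM, not drawn here, the lines overlapped for Slc38a2, Slc7a1, Slc3a2 and Slc43a1.

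Among the other outputs of the Atf4 branch, 6 genes were called in edgeR, and these 6 were lower. The calls were 25% of the aminoacyl-tRNA synthetases, 9.09% of the further enzymes and 15.4% of the partners and non-metabolic targets. Of all genes tested, 8.35% were called and 4.93% were lower. Of 12 aminoacyl-tRNA synthetases, which charge tRNAs, 3 were lower and 0 higher: Iars1 (log2 fold change -0.60, adjusted p = 0.00143), Tars1 (-0.57, 0.00543) and Cars1 (-0.48, 0.0255), for isoleucine, threonine and cysteine, and 0 of the 12 passed in the fit on log2 TPM with a pseudocount of 1. The call of Cars1 was also lost without RGECO replicate 2 or WT replicate 4 or 5 (adjusted p up to 0.0740). Of 11 further amino acid and folate enzymes tested, Gpt2, the mitochondrial alanine aminotransferase, was lower, with 120 ± 17.2 CPM in RGECO and 216 ± 31.0 CPM in WT (log2 fold change -0.85, adjusted p = 0.000483). Of 13 partners and non-metabolic targets of Atf4, 2 were lower and 0 higher in edgeR. The balance of directions depended on the fit, with 5 higher and 2 lower at an unadjusted p under 0.05, 1 higher and 2 lower in DESeq2, and 3 higher and 1 lower on log2 TPM with a pseudocount of 1. Fgf21, a hormone that muscle secretes under mitochondrial and amino acid stress, had 28.8 ± 6.12 CPM in RGECO and 58.8 ± 23.5 CPM in WT (log2 fold change -1.03, adjusted p = 0.0101, and 0.0754 without the 2 libraries of lowest total), and Vldlr, a lipoprotein receptor, had a log2 fold change of -0.68 (adjusted p = 0.00739, and 0.127 on log2 TPM with a pseudocount of 1). Bbc3 (PUMA), a cell death gene that Ddit3 can induce, was just outside the threshold with a log2 fold change of 0.95 (adjusted p = 0.0666). The other 4 above 0 at an unadjusted p under 0.05 were Ddit4, a repressor of mTORC1 (0.85, adjusted p = 0.153), the stress cytokine Gdf15 (0.53, 0.140), the stress-induced chromatin protein Nupr1 (0.32, 0.125) and the death receptor Tnfrsf10b (0.27, 0.154).

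Of 12 genes for eIF2 kinases, phosphatase subunits and eIF2B, Ppp1r15b (CReP), the constitutive counterpart of Ppp1r15a, was lower, with 114 ± 9.58 CPM in RGECO and 181 ± 17.6 CPM in WT (log2 fold change -0.66, adjusted p = 0.000727). That call was lost on log2 TPM with a pseudocount of 1 (adjusted p = 0.0860) and with all 12 libraries (adjusted p = 0.0978). On the ER side, Tmbim6 (BI-1), an ER membrane protein that restrains Ern1 and lowers ER calcium, was the 1 gene called higher of 9 further stress transducers, with 681 ± 103 CPM in RGECO and 476 ± 37.8 CPM in WT (log2 fold change 0.51, adjusted p = 0.00717, and 0.0644 without the 2 libraries of lowest total). Of 16 genes of the translocon and oligosaccharide transfer, Sec61a1, the pore through which proteins enter the ER, was lower (log2 fold change -0.40, adjusted p = 0.0139). The Sec61a1 call was lost without RGECO replicate 2 (adjusted p = 0.0575). The 1 call was 8.33% of the eIF2 list, 11.1% of the stress transducers and 6.25% of the translocon list, against 8.35% of all genes tested. In edgeR, 0 of 15 further ER folding genes, 0 of 11 tested genes of ER-associated degradation and 0 of 8 genes of collagen folding passed. At an unadjusted p under 0.05, those counts were 1 higher and 5 lower, 1 higher and 1 lower, and 1 higher and 2 lower, and DESeq2 called 2 ER folding genes lower and 0 of the others. The nearest were Fkbp11, a prolyl isomerase (-0.62, adjusted p = 0.0505), and P4hb, the classical disulfide isomerase (-0.36, adjusted p = 0.0559).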

How the data were processed

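Poly(A) RNA libraries of differentiated C2C12 cells were sequenced with paired 50-base reads, per the labels' protocols. The authors deposited Salmon tables of estimated counts per gene, not normalised, and of TPM per gene, which the authors scaled for transcript length and library size. The submitters' processing notes name Salmon, STAR, bedtools 2.25.0 and BWA 0.7.12-r1039, with GRCm39, mm10 and hg19 as builds. What each was used for, which annotation release was taken and whether counting used strand is not given in the sources used here. Reads of overlapping antisense genes therefore cannot be told apart. In GENCODE M21, 12 of the 34 genes share exon bases with another gene, and 13 had counts that were not whole (tolerance 0.001).

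Rounded estimated counts entered edgeR 4.0.16 in R 4.3.3 (filterByExpr, TMM scaling, robust quasi-likelihood F test). Benjamini-Hochberg adjustment ran over the 13318 genes kept, and all 34 genes passed that filter on low counts. CPM values are TMM-scaled. RGECO replicate 4 was left out for a total under 1000000. The common coefficient of variation was 25.2%, and 3 counts are 0.252 to 0.510 CPM per library. Self-tests used simulated counts. The 34 genes and all lists were chosen with earlier results of these data known. The text describes each of the 34 genes and names up to 4 called genes of each other list. Of the 34, every RGECO library is given for those past adjusted p 0.05, the most abundant of each list, and Atf4, Xbp1 and Ddit3. For WT, the lowest, median and highest values of these genes are given. Alternatives were RLE scaling, DESeq2 1.42.0, no filter, all 12 libraries, each library left out, a replicate block, log2 TPM with pseudocounts of 1 and 0.1 (limma 3.58.1), and mitochondrial or Malat1 share as covariates. Whether replicates are separate cultures is not stated in the labels, and the p-values then measure only how these samples spread, which can be technical. The smallest chi-square per gene between libraries of a line was 7.62 (WT replicates 4 and 6), so no library was a copy. The largest was 81.2 (WT replicates 2 and 6). Protein sequences were not used here.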

Additional observations from a re-analysis of the deposited data

Results flagged for a closer look

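In 4 of 98 sets of libraries (34 genes and 15 further called genes, in each line) 1 library stood apart from the others of its line by Dixon's criterion, and chance gives about 1 in 20 such flags. Ppp1r15a had 151 CPM in RGECO replicate 5, where the next highest RGECO library had 121 CPM. Mthfd2 had 184 CPM in the same library, where the next had 124 CPM. Sesn2 had 57.4 CPM in RGECO replicate 6, where the next lowest had 71.9 CPM. Sdf2l1 had 34.2 CPM in RGECO replicate 2, where the next highest had 20.1 CPM. None of these 4 genes passed the test between the lines in edgeR without covariates, and Ppp1r15a and Sesn2 passed as lower with mitochondrial share as a covariate (adjusted p 0.00265 and 0.000316).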

How the results depend on the processing

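Of 22 alternatives, those that left out 1 library gave 785 to 1140 called genes over all genes (1112 as reported), 2 of 12 in the Atf4 branch each time, 1 to 3 of 22 in the ER branch (2 as reported) and 4 to 6 of 9 amino acid transport genes (6 as reported). RLE scaling gave 1112 called genes, DESeq2 1596 and no filter 1071. DESeq2 called 4 ER branch genes. On log2 TPM with pseudocounts of 1 and 0.1, and with a pseudocount of 1 and no filter, 605, 587 and 258 genes were called, of which 344, 330 and 140 were higher and 261, 257 and 118 lower, against 456 higher and 656 lower as reported. Those 3 fits called 1 Atf4 branch gene each (Ddit3), 1, 1 and 0 ER branch genes, and 3, 2 and 1 transport genes. Their median log2 fold changes over all genes were 0.09, 0.10 and 0, against -0.01 as reported. Mitochondrial or Malat1 share as a covariate gave 3133 or 2771 calls, 4 in the Atf4 branch with either, and 9 or 7 in the ER branch. With all 12 libraries, 1 Atf4 branch gene (Ddit3), 0 ER branch genes and 3 transport genes were called. Without the 2 libraries of lowest total, an alternative added after seeing the data, 1 Atf4 branch gene (Atf4) and 1 ER branch gene (Ern1) were called. The transport and other-list values were also added then. The causes were not tested.

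Of the 30 genes not called, 21 were called in 0 of the 22 alternatives, and 0 called genes changed direction. Replicate numbers are shared by the lines, and 1 of 5 same-numbered pairs had a correlation of deviations above 0.1 (-0.252 to 0.516). Such correlations cannot settle whether a shared number marks a shared culture or batch. The fit as reported did not pair the libraries. A replicate block gave 777 calls, 2 in the Atf4 branch, 2 in the ER branch and 6 among transport genes, and among the named genes it ended the calls of Cars1 (adjusted p = 0.0687) and Sec61a1 (adjusted p = 0.0520).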
